A study of Homo sapiens and Mus musculus with 4 samples.

Results

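The MYC and MYB proto-oncogenes, the MYC paralogue MYCN, and the MYC network genes MAX and MXD1 were followed through 2 lists of ATF4 binding peaks. These 5 of the 20037 human protein-coding genes were chosen from earlier results of the same data, in which a KG1a peak lay inside MYC and another inside MYB. Peaks were taken as belonging to a gene where they overlapped its span or the 100 kb on either side, and for MYC also the 2 Mb downstream. This gave 2 of the 873 peaks listed for KG1a cells. In the mouse bone marrow list only Myc was examined, which gave 75 of its 83088 peaks.

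KG1a is an established human line from an acute myeloid leukaemia, kept in medium with 20% fetal bovine serum. The mouse material was bone marrow cells of the C57BL/6 strain, for which the labels give no age, sex, genotype change or treatment, and do not say whether several animals were pooled. Each source had 1 library from chromatin immunoprecipitation against ATF4 and 1 input library without antibody, so each list rests on 1 comparison without replicates, and the read depth is unknown. The lists hold only the chromosome, start and end of each peak. A listed peak therefore has no height, fold enrichment or p-value, and no error can be given for it.

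ATF4 is a basic leucine zipper transcription factor that is translated when amino acids run short or proteins misfold. It binds DNA as a dimer, often with a C/EBP protein, at a joint ATF and C/EBP element. MYC is a basic helix-loop-helix leucine zipper factor that drives growth and protein synthesis, and it needs MAX as its partner to bind E-box sequences. MXD1 competes for MAX and represses the same sites, while MYCN takes the place of MYC in some embryonic and neural tissues. MYB keeps blood progenitors in an immature, dividing state, and in blood-forming cells MYC is controlled by enhancers spread far downstream of the gene.

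In KG1a, 2 of the 5 genes, MYC and MYB, had a listed peak, each 1 peak and each inside the gene. MYCN, MAX and MXD1 had none within 100 kb. Over all protein-coding genes, 9.93% had a peak in the gene or within 100 kb, and 2.26% had one inside the gene. As the peaks inside MYC and MYB were the reason for choosing the genes, nothing is read from the count.

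**Figure D1:**
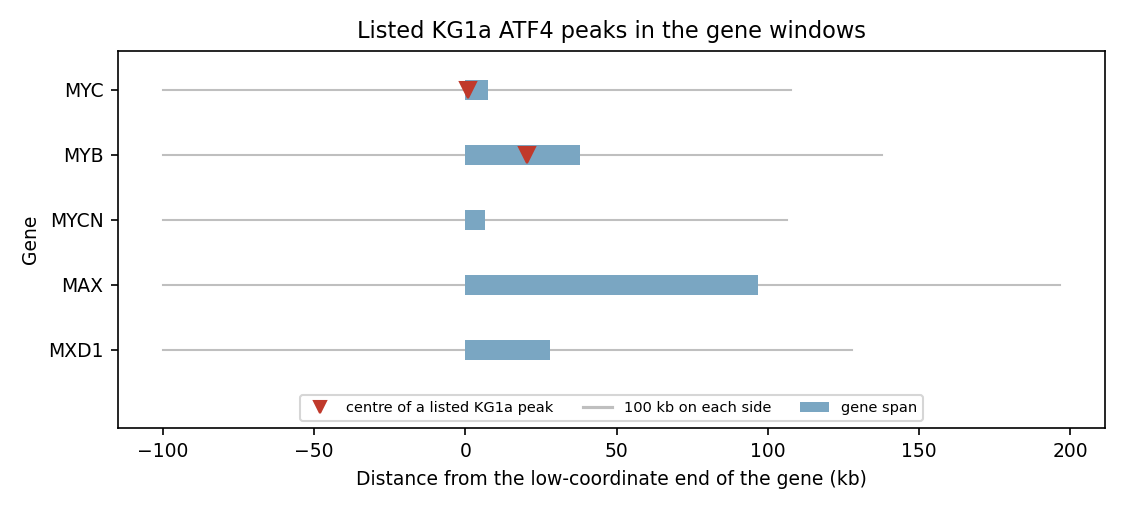
Listed KG1a ATF4 peaks in the windows of the 5 genes. The x axis is the distance from the low-coordinate end of each gene in kb, bars are gene spans, lines reach 100 kb to either side and triangles are peak centres. The 2 peaks lie inside MYC, 0.895 kb from that end, and inside MYB, 20.4 kb from it.

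MYC (gene ID 4609, chromosome 8, 127735434 to 127742951, GRCh38) held a peak near the 5′ end of its annotated span. The gene is transcribed towards higher coordinates, so its low-coordinate end is the 5′ end. The peak spanned 127736161 to 127736497 and was 337 bp wide, close to the list's median width of 341 bp. It began 727 bp and ended 1063 bp after the gene's first base, and its centre, 895 bp in, lay 11.9% of the way along the 7518 bp of the gene. Of protein-coding genes under 10 kb, 0.457% had a peak inside, a share given as background alone since MYC was chosen for its peak. Of the 450 pairs of a gene and a peak centred in it, 40 (8.89%) lay within 1 kb of a gene end, and the MYC peak is one of these. The annotation used gives gene ends but no exons, so the exon or intron at the peak is not named. It gives no transcript starts inside a gene, and MYC had no matched promoter. The distance of the peak from a MYC transcript start, and any overlap with a MYC promoter, are therefore not known here.

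Around MYC the KG1a list was otherwise empty. The next peak on the low-coordinate side was 3.36 Mb from the gene and the next on the high-coordinate side 3.34 Mb, so that the MYC peak was the single listed peak in a stretch of 6.71 Mb. Chromosome 8 as a whole held 55 KG1a peaks, or 0.379 per Mb. In the 2 Mb downstream of MYC, the side on which its enhancers in blood-forming cells are known, 0 peaks were listed. That is common for a list of this size: 58.3% of 2 Mb windows stepped along the chromosomes held none. The 2 Mb carry 23 annotated genes, of which 11 are long non-coding RNA genes, 6 microRNA genes and 1 a protein-coding gene, GSDMC, of the gasdermin family. PVT1, the long non-coding RNA gene that begins 51.6 kb beyond MYC, had the MYC peak as its nearest, 58.0 kb away. For CCDC26, a long non-coding RNA gene 1.61 Mb beyond MYC, the nearest peak was 1.40 Mb away. CASC11 and MIR1204, within 100 kb of MYC, held no peak either.

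MYB (gene ID 4602, chromosome 6, 135181308 to 135219172) held a peak deep in the gene. It spanned 135201569 to 135201895, a width of 327 bp, and 69.1% of the list was at least as wide. Its centre lay 20.4 kb from the start of the gene and 17.4 kb from its far end, 53.9% of the way along the 37.9 kb. By position it thus differed from the MYC peak, which sits at the 5′ end. The same peak overlaps LOC105378011, a long non-coding RNA gene, and so cannot be given to MYB alone. Of protein-coding genes of 10 to 100 kb, 1.90% had a peak inside, and here too nothing is read from it. The next listed peaks were 1.26 Mb away on the low-coordinate side and 2.90 Mb away on the other. The neighbour AHI1, a ciliary protein gene within 100 kb, had none.

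The promoters of the genes were read from RefSeq (GRCh38.p14), which matched 4 of the 5, MYB, MYCN, MAX and MXD1, with 5 promoters since MAX has 2. Each covers 250 bases before to 50 after a transcript start. No KG1a peak overlapped any of the 5, and the MYB peak lay 20.2 kb from the MYB promoter. MYC had no matched promoter, so whether the MYC peak overlaps a MYC promoter was not examined. The MYB promoter is shown because it is the promoter in this set whose gene holds a listed peak elsewhere. It lies at chr6:135181058-135181357 on the plus strand, is written 5′ to 3′, and the capitals mark the stretch closest to the ATF and C/EBP element TGATGCAA, with 2 mismatches.
MYB promoter: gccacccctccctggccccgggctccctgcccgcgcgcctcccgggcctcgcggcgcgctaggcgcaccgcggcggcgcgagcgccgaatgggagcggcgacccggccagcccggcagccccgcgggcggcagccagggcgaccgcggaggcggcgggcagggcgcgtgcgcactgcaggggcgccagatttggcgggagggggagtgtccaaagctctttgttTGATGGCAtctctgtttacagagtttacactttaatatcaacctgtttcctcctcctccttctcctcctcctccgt
The sequence is rich in G and C (71.0%, against a median of 58.7% over all promoters) and holds 35 CG steps, against a median of 14.

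Searched on both strands, the element TGATGCAA occurred in 0 of the 5 promoters of MYB, MYCN, MAX and MXD1. MYC had no matched promoter and was not searched. The element was in 0.866% of all 35116 promoters, so nothing is read from 0 of 5. It was in 7 of the 71 promoters (9.86%) that a KG1a peak overlapped. The looser form TGATGNAA, which includes every match to the first, was in 3.62% of all promoters and 14.1% of the 71, and again in 0 of the 5. The cyclic AMP response element TGACGTCA and the MYC and MAX E-box CACGTG were also in 0 of the 5. A promoter 2 mismatches or fewer from TGATGCAA is ordinary, since 76.9% of all promoters are. The 30 bases around the first of the closest stretches in the other genes are set beside the same stretch of TARS1 and AARS1, tRNA synthetase genes with a listed KG1a peak at the promoter, to show how a full match differs. Capitals again mark the 8 bases compared, and in TARS1, AARS1, MYCN and MXD1 the element reads on the opposite strand.
MYCN, 2 mismatches: gcttcccagctTTGCAGCCttctctctgca
MAX, first promoter, 2 mismatches: gttgatccggTGCTGCAGtgaggaggtggt
MXD1, 3 mismatches: tgcgaatccTGTCACCAgttggaaagaggg
TARS1, 0 mismatches: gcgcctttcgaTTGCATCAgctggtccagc
AARS1, 0 mismatches: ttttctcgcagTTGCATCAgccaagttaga
These matches describe the letters in a window of 300 bases and say nothing of binding elsewhere in a gene. The peaks inside MYC and MYB lie outside the sequences used here.

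MYCN (gene ID 4613, chromosome 2, 15940550 to 15947004) was the farthest of the 5 from a listed KG1a peak. The nearest lay 8.73 Mb away on the low-coordinate side, and the next on the other side 9.34 Mb away, leaving 18.1 Mb without a peak. Of all protein-coding genes, 95.4% had a peak as near or nearer. The same chromosome carried 79 peaks. Its antisense neighbour MYCNOS, which overlaps MYCN, held no peak.

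MAX, the shared dimer partner (gene ID 4149, chromosome 14, 65006101 to 65102695, minus strand), had its nearest peak 1.28 Mb away, at 66381316 to 66381803. This peak was 488 bp wide and lay 105 kb from CCDC196, the closest protein-coding gene. Over all protein-coding genes the median distance to a peak was 965 kb, and 58.8% were as near as MAX or nearer. Of the 12 annotated genes in the MAX window, 6 of them protein-coding, 0 had a peak inside. For the 6 protein-coding genes such a count is ordinary, as 2.26% of all protein-coding genes had a peak inside. The share with a peak inside was not computed for other gene types.

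MXD1, the MAX-binding repressor (gene ID 4084, chromosome 2, 69915109 to 69942945), had its nearest peak 235 kb away, at 70177539 to 70177868, inside C2orf42. It was the first of the 5 beyond the limit of 100 kb, and 18.3% of protein-coding genes were as near or nearer. A limit of 200 kb would still leave it out. Over the 5 windows together, 39 annotated genes were present, and the 3 with a peak inside were MYC, MYB and LOC105378011. MYC and MYB were chosen for their peaks, and LOC105378011 shares the MYB peak, so the selection fixed these 3. No other gene of the windows held a peak, which the selection did not fix. Nothing is read from the count. Of the 39, 15 are protein-coding, and the only share at hand is the 2.26% of all protein-coding genes with a peak inside.

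The MYC and MYB peaks stood far apart in the deposited order, whose meaning the sources used here do not give. The MYC peak was in place 127 of 873 and the MYB peak in place 872. Both were narrower than the median of the list, so with peaks at or above the median width alone 0 of the 5 genes had one. In the first 50% of the deposited order, MYC kept its peak and MYB had none.

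Other genes of the MYC and MYB network were counted in the same way. The 5 lists hold 39 genes, of which 4 (10.3%) had a peak within 100 kb, against 9.93% of all protein-coding genes, and 1 (2.56%) had one inside, against 2.26%. The median distance to a peak was 649 kb over the 39 and 965 kb over all protein-coding genes. No result about the lists follows from these shares. The comparison changes with the limit, as 11 of 39 (28.2%) had a peak within 200 kb, against 16.3% of all protein-coding genes, and 2 of 39 (5.13%) within 50 kb, against 6.25%.

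Of the 9 genes in the MYC network list, which includes MLX and factors that pair with it, 2 had a peak within 100 kb. Of all protein-coding genes, 9.93% did. Each list is short, so nothing is read from the count of any single list. MXD4, like MXD1 a repressor that pairs with MAX, had one inside the gene, on chromosome 4 from 2255248 to 2255573, centred 54.4% of the way along the gene and in place 815 of the list. MLXIPL, a glucose-sensing factor that pairs with MLX, had one 70.5 kb away, on chromosome 7 from 73522347 to 73522669, but this peak lay 0.054 kb from BAZ1B, a chromatin gene. The others, MYCL, MXI1, MXD3, MNT, MGA, MLX and MLXIP, lay between 173 kb and 3.46 Mb from a peak. Of the 10 genes for MYC cofactors and MYC turnover, 0 had a peak within 100 kb, which is ordinary for so few genes at a share of 9.93%. RUVBL2, a chromatin remodelling ATPase, was the nearest at 214 kb, and HUWE1, a ubiquitin ligase, the farthest at 10.7 Mb.

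Among 11 genes known as MYC targets, 1 had a peak within 100 kb. The target with a peak was CCND2, encoding cyclin D2. Its peak lay 95.1 kb away on chromosome 12 from 4400485 to 4400848, where FGF23 was the closest protein-coding gene. LDHA, encoding a lactate dehydrogenase subunit, lay just beyond the limit at 113 kb, and NOP56 and SRM, of ribosome assembly and polyamine synthesis, at 168 and 203 kb. ODC1, NCL and NPM1, often used as MYC targets, were 3.23, 5.52 and 5.13 Mb from a peak. Of the MYB relatives and coactivators, 0 of 4 had one within 100 kb, with CREBBP at 146 kb, MYBL1 at 193 kb, EP300 at 605 kb and MYBL2 at 2.71 Mb. Of 5 genes known as MYB targets, 1 had one. KIT, the stem cell factor receptor gene, had a peak 38.4 kb before its low-coordinate end, on chromosome 4 from 54619254 to 54619570. GFI1, ELANE, MPO and BCL2 lay 174 kb, 325 kb, 508 kb and 2.55 Mb from a peak.

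**Figure D2:**
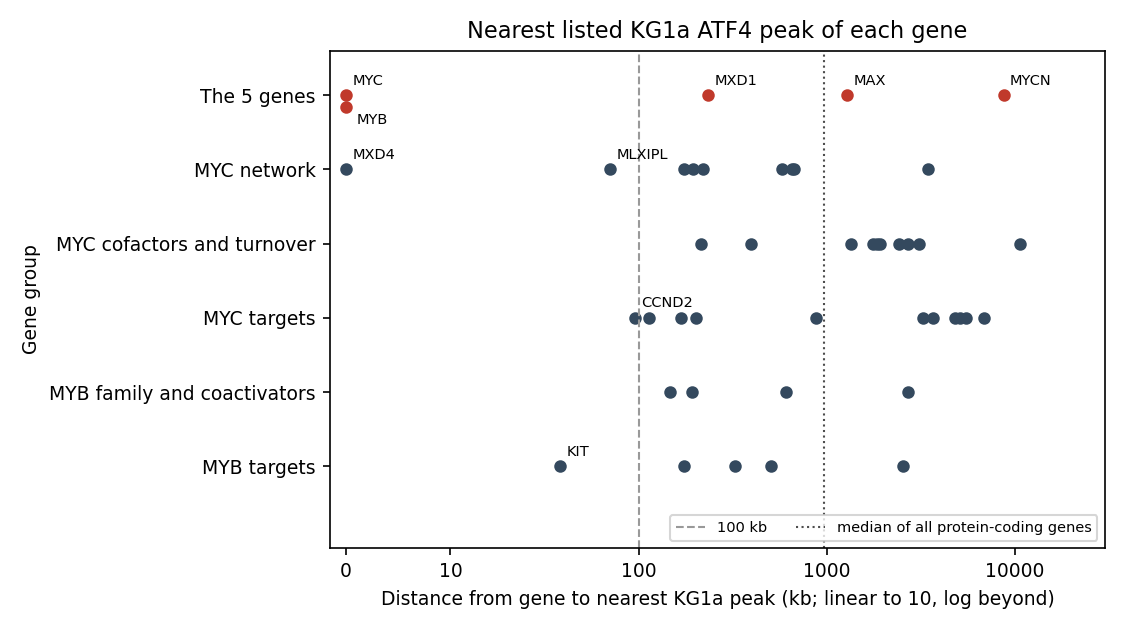
Distance in kb from each gene to its nearest listed KG1a peak, on an axis that is linear up to 10 kb and logarithmic beyond. Each point is a gene, the dashed line marks 100 kb and the dotted line the median of all protein-coding genes, 965 kb. MYC, MYB and MXD4 are at 0, and MYCN, at 8727 kb, is the farthest of the 5.

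In the mouse list only Myc was examined, on chromosome 15 at about 61.985 to 61.99 Mb (GRCm38), since no mouse annotation was used here. Myb, Mycn, Max and Mxd1 were not analysed here. Distances from Myc are therefore good to about 1 kb. Mouse Myc is also transcribed towards higher coordinates, so upstream means lower ones.

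Mouse Myc itself held 0 listed peaks, but a broad one stood just upstream. It spanned 61979742 to 61982751 and ended 2.25 kb before the gene. At 3010 bp it was wider than most, as 4.60% of the mouse list was at least as wide, and it was in place 9244 of 83088. The other 3 peaks of the upstream 100 kb were narrower. A pair stood at 63.7 and 62.7 kb from the gene, 464 and 584 bp wide (61920791 to 61921254 and 61921755 to 61922338), and one of 298 bp stood at 86.2 kb (61898495 to 61898792). None of these 4 is within the gene, and a window of 5 kb without a peak is usual in this list (85.9% of such windows).

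The number of peaks around mouse Myc was not high. The gene with 100 kb on each side held 4, all upstream, where 74.6% of autosomal windows of that length, 205 kb, held at least as many and the median was 6. The first 100 kb downstream held 0, and 15.8% of 100 kb windows held none. Between the broad upstream peak and the first peak downstream, 132.5 kb beyond Myc, a stretch of 140 kb that includes the gene was free of listed peaks.

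The 2 Mb downstream of mouse Myc held 71 peaks, or 35.5 per Mb. Chromosome 15 had 35.1 per Mb and the autosomes together 33.9, and 35.1% of 2 Mb windows held at least as many. The density downstream was thus that of the chromosome. The peaks were somewhat narrow, with a median width of 473 bp against 544 bp over the list, and 3 of 71 (4.23%) were wider than 2 kb against 9.38%. With 1 library, neither difference was tested.

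Within these 2 Mb the peaks grouped at 10 kb about as they did elsewhere in the list, while pairs within 3 kb made up a larger share. Neither was tested. The first Mb held 31 and the second 40. Of the 70 neighbouring pairs, 33 (47.1%) were centred within 3 kb of each other, against 37.1% of pairs on all autosomes and 38.7% on chromosome 15. Joined wherever neighbouring centres were at most 10 kb apart, the 71 peaks formed 34 groups. Of these, 18 were single peaks, or 25.4% of the 71, where single peaks made up 23.8% on chromosome 15 and 24.1% on the autosomes. The 5 groups of 4 or more held 28 peaks, or 39.4%, where such groups held 37.7% and 36.4%. The median spacing of neighbouring centres was 7.08 kb, against 7.44 kb on chromosome 15 and 8.26 kb on the autosomes.

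The group nearest to Myc, 133 to 143 kb downstream, had 4 peaks, and among them were the widest and the third widest of the downstream peaks. These spanned 62129238 to 62133437, a width of 4200 bp that 2.19% of the list reached, and 62122502 to 62125346, a width of 2845 bp. Beyond a further peak near 201 kb, the longest gap followed, with 225 kb between neighbouring centres. A group of 6 stood 478 to 487 kb downstream (62467529 to 62476741) and one of 5 at 599 to 613 kb (62589019 to 62602693).

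The largest group by number lay far downstream, with 9 peaks from 1477 to 1496 kb beyond Myc (63467392 to 63486403). Its peaks were short, covering 4326 of the 19.0 kb. Together with 1 more peak it made the bin from 1400 to 1500 kb the fullest of the downstream bins, with 10 peaks. The next bin held 0. The bins from 1600 to 1700 and from 1700 to 1800 kb held 8 and 7, including a group of 4 at 1606 to 1610 kb (63595558 to 63599776). Enhancers that act on Myc in blood stem and progenitor cells are known far downstream of the gene in mice, but their positions were not used here, and no peak is assigned to one.

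The other broad peaks downstream stood alone or in small groups. One of 3260 bp, the second widest, was 1.05 Mb from Myc (63037365 to 63040624). Peaks of 1983 bp (63177863 to 63179845) and 1933 bp (63949833 to 63951765) lay 1.19 and 1.96 Mb away. In place, the 1933 bp peak came earlier in the list than the other broad ones, at 1776, against 4896, 5760, 7401 and 9786.

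**Figure D3:**
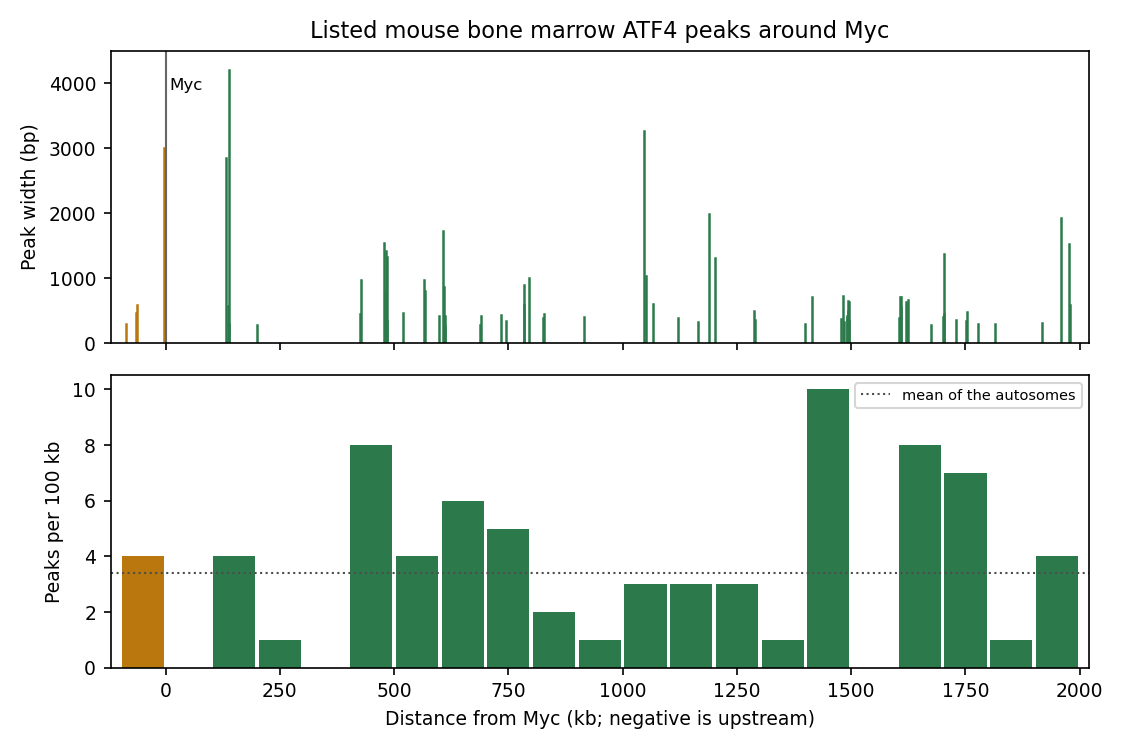
Listed mouse bone marrow ATF4 peaks from 100 kb upstream to 2 Mb downstream of Myc, by distance in kb. The upper panel gives the width of each peak in bp and the lower panel the number of peak centres per 100 kb, with a dotted line at the autosomal mean. Upstream peaks are orange and downstream peaks green, and the bin with 10 peaks is followed by one with 0.

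The listed peaks near MYC in the 2 sources are set side by side as a description only. KG1a had 1 peak of 337 bp inside the gene and 0 in the 2 Mb downstream, from a list of 873. Mouse marrow had 0 inside the gene, 1 of 3010 bp ending 2.25 kb upstream, and 71 in the 2 Mb downstream, from a list of 83088. The gene span was the annotated 7.52 kb for human MYC and an approximate 5 kb for mouse Myc, so "inside the gene" is not the same measure in both. The lists differ in species and in length, have 1 library each and no known depth, so no difference in binding was tested and none is stated.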

How the data were processed

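ATF4 ChIP and input libraries of KG1a cells and mouse bone marrow cells were compared by the authors, giving 1 deposited peak list per source with chromosome, start and end in bases. The submitters' processing notes name the tools MACS2, Bowtie2, deepTools and CASAVA 1.4 and the builds GRCh38 and GRCm38. Settings and thresholds are not given in the sources used here. These 4 libraries form 4 groups of 1, so nothing was tested. Read depth is unknown.

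Starts were counted from 1. A peak counted where 1 base or more overlapped a window. KG1a peaks were placed against RefSeq genes of GRCh38.p14; strand came from RefSeq promoters for MYB, MYCN, MAX and MXD1, and from textbook knowledge for MYC and mouse Myc. Backgrounds were all protein-coding genes, and end-to-end windows between the first and last gene (KG1a, without chromosome Y) or peak (mouse autosomes) of each chromosome, assembly gaps included. Python 3.11.15 with numpy 2.4.6 was used, and the window counting was tested on simulated data.

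The 5 genes, the 39 genes of the lists and the alternatives were chosen with earlier results of these data known. Named were the 5 genes, each KG1a peak in their windows, list genes with a peak within 100 kb, mouse peaks within 10 kb of Myc and the 5 widest. The further list genes, the mouse peak groups and the remaining peaks were named after their values were seen. Alternatives were flanks of 50 and 200 kb, 1 Mb downstream, peak centres, all annotated genes, chromosome 15 alone, peaks at or above the median width and, added after seeing the data, the first 50% of the deposited order.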

Additional observations from a re-analysis of the deposited data

How the results depend on the processing

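Of 30 alternative values, 13 stayed within 1.5 times the reported value and 17 did not. The count of 2 KG1a peaks in the windows was the same with flanks of 50 or 200 kb and with peak centres, but was 0 among peaks at or above the median width and 1 in the first 50% of the deposited order. Both of these settings remove about 50% of a list by construction. The flanks of 50 and 200 kb and the 1 Mb limit change the window length, so their counts and shares are not for like windows. Downstream of MYC the KG1a count was 0 under the 3 alternatives run. The share of protein-coding genes with a KG1a peak nearby was 6.25% with 50 kb, 16.3% with 200 kb, 5.42% among the wider peaks and 5.38% in the first 50% of the order. The list genes with a peak numbered 2, 11, 1 and 2 of 39 in the same settings. At 200 kb this is 28.2% of the lists, farther from its background of 16.3% than at 100 kb, while at 50 kb it is 5.13%, below its background of 6.25%. In mouse, the Myc window held 1 peak with 50 kb, 11 with 200 kb, and 2 both among the wider peaks and in the first 50%. Downstream of mouse Myc, 31 lay within 1 Mb, 33 were among the wider peaks and 37 in the first 50%. No paired analysis was possible because each group is 1 library. Unknown depth limits every count, as a missing peak may lie under the authors' threshold.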

Other observations

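The MYC and MAX E-box CACGTG was present in 1 of the 71 promoters that a KG1a peak overlapped, or 1.41% (Wilson 95% interval 0.249 to 7.56%), and in 7.26% of all 35116 promoters. The 71 belong to 66 genes, since some genes have several starts. The intervals given here treat the 71 as independent and cover counting error only, so they may be too narrow and do not serve as a test. For the cyclic AMP response element TGACGTCA the shares were 1.41% and 1.85%. The ATF and C/EBP element TGATGCAA stood at 9.86% (Wilson 95% interval 4.86 to 19.0%) of the 71 against 0.866% of all. Differences in base composition between the 71 and all promoters were not examined, and no test was made.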
